A study of Mus musculus with 6 samples.

Results

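The 9 genes described here are Csf1 and its receptor gene Csf1r, the transcription factor genes Spi1, Cebpa and Cebpb, and the macrophage surface or lysosomal genes Cx3cr1, Adgre1, Cd68 and Mertk. They were taken by gene name from a table of 41972 entries, and each of the 9 names matched an entry. The table holds RNA sequencing counts of bone-marrow-derived macrophages in 3 groups of 2 libraries, labelled as biological replicates, with no statement of which animals they came from. In the groups LD-F1_b and LD-F1, macrophages were exposed for 6 h to 20 µg per well of extracellular vesicles (EVs), membrane-bound particles shed by cells, here by the mould Aspergillus flavus. The titles call LD-F1_b and LD-F1 strains of the mould, with the meaning of the suffix not given in the sources used here. In the group PBS, the cells were kept for 6 h with phosphate-buffered saline. Cells of all 3 groups had the genotype WT, came from the marrow of 6-week-old male C57BL/6 mice and had been grown for 6 days in medium with 20% fetal bovine serum and 30% medium conditioned by L-929 cells. L-929 is a mouse fibroblast line that secretes the Csf1 protein, so macrophages of every group, PBS included, had been raised with that factor; its presence during the 6 h was not given in the sources used here. P-values below measure the spread between these libraries only.

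Csf1, also called M-CSF, is the growth factor that keeps macrophages alive and makes them divide, and Csf1r is its receptor, a tyrosine kinase. Il34 is the other known ligand of that receptor. Spi1 encodes PU.1, the factor that opens and maintains macrophage genes, Csf1r among them. Cebpa and Cebpb encode related C/EBP factors that bind the same kind of DNA letters; Cebpa acts early in the making of myeloid cells, and Cebpb is induced in macrophages by inflammatory stimuli. Cx3cr1 is the receptor of the chemokine fractalkine, Adgre1 is the surface protein F4/80, Cd68 is a glycoprotein of the lysosome membrane, and Mertk is a receptor kinase with which macrophages take up dying cells.

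Total counts ran from 13722215 to 15277997 per library. Levels are given as CPM, counts scaled by library size and by TMM factors (which even out libraries that differ in composition), or, between genes, as RPKM, the same divided by gene length in kilobases. A gene was called at an adjusted p under 0.05. Whether the libraries of groups overlapped is given as a description. With 2 libraries a group, an exact two-sided test cannot give a p below 0.3333. The share of all genes without overlap is not given here. Of the macrophage markers 8 of 10 matched genes reached 1 CPM in at least 1 library, and their summed level was 3550 to 3637 CPM in LD-F1_b, 3558 to 3582 CPM in LD-F1 and 3263 to 3274 CPM in PBS. The other 2 were Mertk, described below, and Itgam, whose 0 to 4 counts cannot be read because an unnamed entry on the same strand at the same place held 2056 to 2460 counts. Markers of neutrophils summed to at most 3.75 CPM in any library, with Ly6g, Elane, Ngp, S100a9 and Retnlg at 0 in all 6, and all 6 mast cell and basophil markers were at 0. Dendritic cell markers summed to 7.32 to 8.27 CPM in LD-F1_b, 9.53 to 9.67 CPM in LD-F1 and 4.10 to 4.76 CPM in PBS, with 4 of 8 markers at 1 CPM or more and Ccr7 and Siglech at 0. Monocyte markers, 3 of 5 at 1 CPM or more, summed to 21.3 to 21.9 CPM, 21.0 to 22.9 CPM and 15.3 to 17.4 CPM in the same order of groups. Osteoclast markers, 4 of 6 at 1 CPM or more with Calcr at 0, summed to 293.5 to 294.2 CPM in LD-F1_b, 298 to 350 CPM in LD-F1 and 219 to 243 CPM in PBS. Endothelial markers, 2 of 6 at 1 CPM or more, summed to 37.2 to 38.7 CPM, 27.5 to 36.6 CPM and 48.4 to 55.9 CPM. In each of these lists a single marker had the widest range over the 6 libraries. It was Xcr1 for dendritic cells (1.13 to 8.39 CPM) and Treml4 for monocytes (5.09 to 12.6 CPM). For osteoclasts it was Dcstamp (140 to 267 CPM), and for endothelium Vwf (26.9 to 54.1 CPM). The part of these 4 marker lists in the changes below was not tested. In bulk RNA, fewer cells of a type and less RNA per cell cannot be told apart.

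RefSeq promoters of the build GRCm38.p6 were matched for 6 of the 9 genes, and 4 are shown: those of Csf1, Cebpb and Cx3cr1, the 3 genes called in both EV groups, and that of Cd68, which was called in neither and is shown for its matches to other motifs; those of Cebpa, also called in neither, and of Mertk, not tested, are given by their matches alone. Each is the 250 bases before the gene's start, 5′ to 3′ on the gene's own strand. Capitals mark matches to any of 5 motifs searched on both strands: GAGGAA (PU.1 core), TTNCNNAA (C/EBP), the NF-kB letters (GGG, any 5 bases, CC), TGANTCA (AP-1) and TGATGNAA (ATF4 with C/EBP).
Csf1 (chr3:107760470-107760719, minus strand): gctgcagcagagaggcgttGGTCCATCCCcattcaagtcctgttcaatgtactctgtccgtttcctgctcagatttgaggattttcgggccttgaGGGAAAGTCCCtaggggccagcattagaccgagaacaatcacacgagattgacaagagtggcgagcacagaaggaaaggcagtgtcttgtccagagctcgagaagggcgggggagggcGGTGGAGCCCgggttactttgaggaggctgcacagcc
Cebpb (chr2:167688665-167688914, plus strand): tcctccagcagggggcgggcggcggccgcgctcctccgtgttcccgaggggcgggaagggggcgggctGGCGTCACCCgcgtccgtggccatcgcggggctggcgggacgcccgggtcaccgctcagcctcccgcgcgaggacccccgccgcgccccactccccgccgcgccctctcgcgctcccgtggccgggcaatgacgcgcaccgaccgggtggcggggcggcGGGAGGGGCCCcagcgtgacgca
Cx3cr1 (chr9:120068297-120068546, minus strand): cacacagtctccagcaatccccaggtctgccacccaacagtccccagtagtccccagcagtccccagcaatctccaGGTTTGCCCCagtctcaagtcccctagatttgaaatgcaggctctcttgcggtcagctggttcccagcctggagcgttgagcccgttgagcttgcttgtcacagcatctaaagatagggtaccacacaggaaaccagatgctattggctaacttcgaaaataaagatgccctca
Cd68 (chr11:69666171-69666420, minus strand): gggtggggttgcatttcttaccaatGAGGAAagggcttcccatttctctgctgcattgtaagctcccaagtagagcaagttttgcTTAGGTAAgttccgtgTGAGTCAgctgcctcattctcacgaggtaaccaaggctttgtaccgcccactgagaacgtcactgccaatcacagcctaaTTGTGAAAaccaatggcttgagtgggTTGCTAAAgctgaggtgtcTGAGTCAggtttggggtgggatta
In the Csf1, Cebpb and Cx3cr1 windows every capital stretch is a match to the NF-kB letters, and the other 4 motifs were not found there. The Csf1 window held 4 such matches, 2 of them overlapping on opposite strands from base -155 to -145 before the start (GGGAAAGTCC on the plus strand of the window). The Cebpb window held 3 matches, of which 2 overlap from -23 to -13, and the Cx3cr1 window held 1, from -174 to -165. The Cd68 window held no NF-kB match, 1 match to the PU.1 core, 3 to the C/EBP letters and 2 to the AP-1 letters. The Cebpa window held 3 matches to the NF-kB letters and the Mertk window 4, with none of the other 4 motifs in either. The NF-kB letters thus stood in 5 of the 6 windows, those of genes that were called and of genes that were not. Bases just after the start were found in a transcript of the gene for every window but that of Mertk, so the place of the Mertk window is uncertain. Over all 32851 promoters of this length, 45.8% held the NF-kB letters, 36.8% the C/EBP letters, 23.3% the PU.1 core, 6.75% the AP-1 letters and 3.45% the ATF4 with C/EBP letters. A match is a description of letters and says nothing on binding in these cells.

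Per length, Cd68 stood highest and Mertk lowest of the 9 genes in every group. Mean RPKM over the 6 libraries put Cd68 at the 99.4th percentile of the 12740 genes tested, Cebpb at the 98.8th, Spi1 and Csf1r at the 98.6th, Adgre1 at the 96.8th, Cx3cr1 at the 83.6th, Cebpa at the 59.8th and Csf1 at the 40.4th. In LD-F1_b libraries the order was Cd68, Cebpb, Spi1, Csf1r, Adgre1, Cx3cr1, Cebpa, Csf1 and Mertk, and the ranges of Cebpb and Spi1 and of Spi1 and Csf1r overlapped. In LD-F1 libraries the order was the same, and Cd68 (424 and 528 RPKM) overlapped Cebpb (325 and 443 RPKM). In PBS libraries the order was Cd68, Csf1r, Spi1, Cebpb, Adgre1, Cx3cr1, Cebpa, Csf1 and Mertk, with no overlap between neighbours. Cebpb thus stood above Spi1 and Csf1r on average in both EV groups and below both in PBS, where it had 183 and 166 RPKM. Mertk held 0.0164 to 0.150 RPKM over the 6 libraries.

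**Figure D1:**
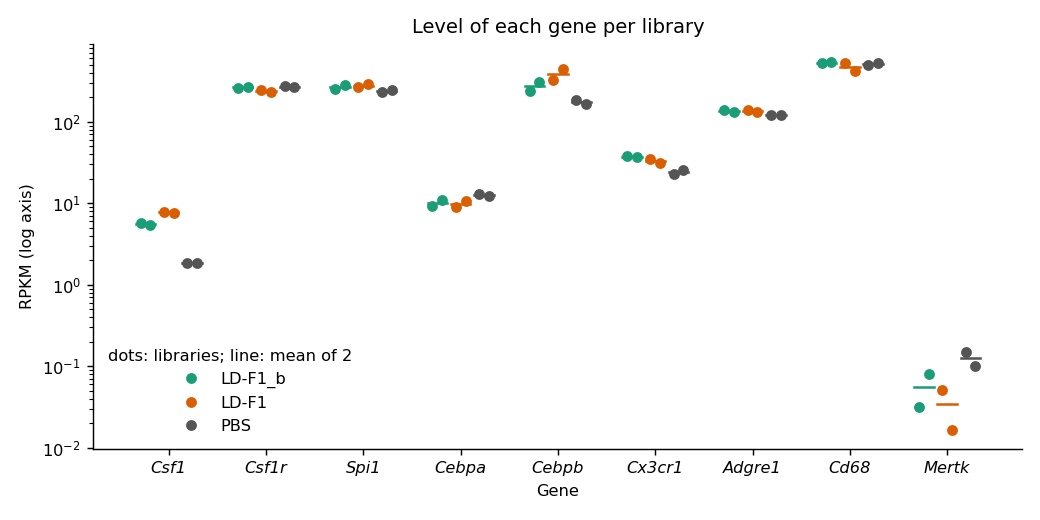
Level of each of the 9 genes as RPKM on a log axis, with a dot per library, a line at the mean of 2, and groups LD-F1_b, LD-F1 and PBS from left to right. Csf1, Cebpb and Cx3cr1 dots of both EV groups lie above PBS, and Mertk lies far below the other 8 genes in all groups.

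In both EV groups, Csf1, Cebpb and Cx3cr1 rose against PBS, and the other 5 genes tested did not pass the threshold in either. Of the 9 genes, 8 passed the filter on low counts and were tested, and Mertk was not. In LD-F1_b against PBS, 3 of the 8 were called higher, where 6.44% of all 12740 genes tested were called higher and 11% were called in either direction. In LD-F1 against PBS, 3 of the 8 were called higher, where 11.4% of all genes were called higher and 21.2% in either direction. The number called lower was 0 of 8 in both, beside 4.54% and 9.87% of all genes, by edgeR; of the 5 genes not called, the unadjusted p of Cebpa was 0.0250 in LD-F1_b and 0.0181 in LD-F1, that of Spi1 was 0.0417 in LD-F1, and the others lay above 0.05. DESeq2 called 0 lower as well. Both comparisons use the same PBS libraries. The median log2 fold change of the 8 genes was 0.16 in LD-F1_b and 0.18 in LD-F1, where that of all genes tested was 0.01 in each.

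**Figure D2:**
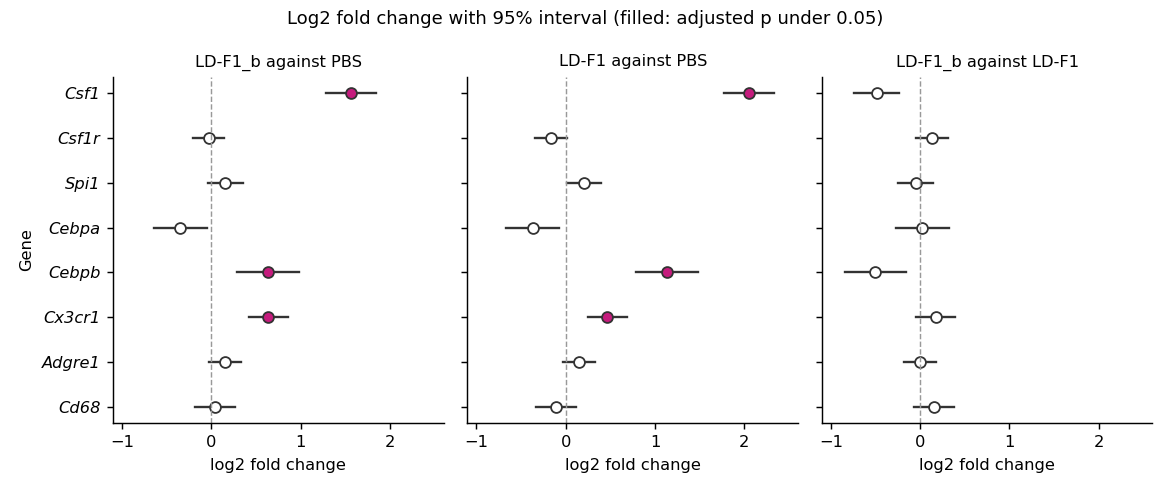
Log2 fold change of the 8 tested genes with its 95% interval in 3 comparisons; filled points passed an adjusted p of 0.05. Csf1, Cebpb and Cx3cr1 are filled in LD-F1_b against PBS and in LD-F1 against PBS, and no point is filled in LD-F1_b against LD-F1.

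Csf1, the ligand, lies on chromosome 3 from 113333300 to 113353186 (minus strand) in the positions of the deposited table. It had 29.9 and 28.5 CPM in LD-F1_b libraries, 41.1 and 40.6 CPM in LD-F1 libraries and 9.79 and 9.89 CPM in PBS libraries. The 3 groups did not overlap, and replicates lay close together, and the PBS pair stood lowest and the LD-F1 pair highest. From 430 and 412 counts in LD-F1_b, 549 and 571 in LD-F1 and 150 and 157 in PBS, Csf1 rose 2.96-fold in LD-F1_b against PBS (95% interval 2.44 to 3.60). The log2 fold change was 1.57 ± 0.13 (SE, adjusted p = 1.32e-05, edgeR). In LD-F1 against PBS the rise was 4.15-fold (95% interval 3.43 to 5.03), with a log2 fold change of 2.05 ± 0.13 (SE, adjusted p = 5.66e-07, edgeR). Of the 3 genes called, Csf1 alone kept its call under all 15 other settings tried in both EV groups, with log2 fold changes of 1.495 to 1.60 in LD-F1_b and 1.95 to 2.10 in LD-F1.

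Csf1r, the receptor of that ligand, did not pass the threshold in either comparison. It lies on chromosome 18 from 62617314 to 62645157 (plus strand). Its level was 1264 and 1315 CPM in LD-F1_b, 1208 and 1142 CPM in LD-F1 and 1336 and 1296 CPM in PBS. The LD-F1 pair lay below the other 4 libraries, and the LD-F1_b and PBS pairs overlapped. Against PBS, its log2 fold change was -0.03 in LD-F1_b (95% interval -0.21 to 0.15, adjusted p = 0.872, edgeR) and -0.16 in LD-F1 (95% interval -0.34 to 0.01, adjusted p = 0.185, edgeR). In LD-F1 against PBS it passed the threshold as lower with library totals as the only scaling (log2 fold change -0.27, adjusted p = 0.0314, edgeR) and without LD-F1 replicate 1 (-0.21, adjusted p = 0.0123, edgeR), over a range of adjusted p of 0.0123 to 0.586 in the 15 settings. Csf1r overlaps Hmgxb3 on the opposite strand, an entry with 7799 counts over the 6 libraries, with the strand setting of the counting not given in the sources used here.

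Set within each library, the reads per kilobase of Csf1 were 2.18% and 2.00% of those of Csf1r in LD-F1_b, 3.14% and 3.28% in LD-F1, and 0.675% and 0.703% in PBS. The means were 2.09% ± 0.13, 3.21% ± 0.097 and 0.689% ± 0.020 (SD, n = 2 each). The 3 groups did not overlap, and in every group the receptor transcript stayed far above that of its ligand. Such a ratio does not depend on how libraries are scaled; with 2 libraries a group an exact two-sided test cannot give a p below 0.3333, so none was run.

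**Figure D3:**
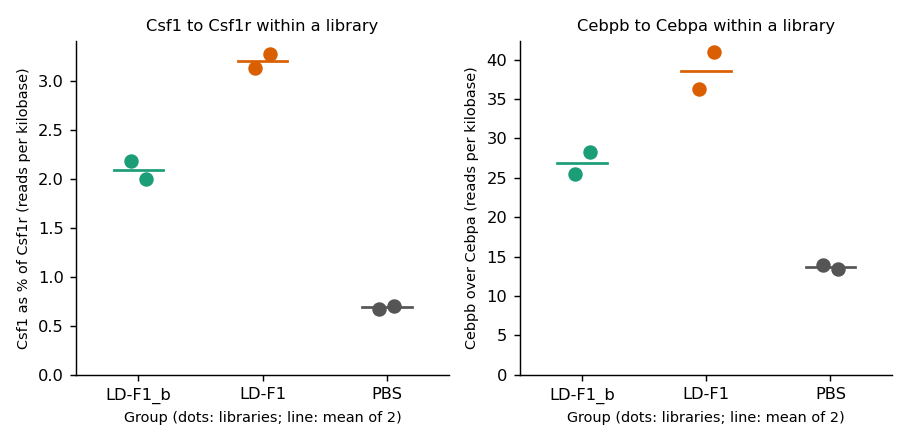
Csf1 as a percentage of Csf1r and Cebpb over Cebpa, both as reads per kilobase within a library, with a dot per library and a line at the mean of 2, for LD-F1_b, LD-F1 and PBS from left to right. In both panels the PBS dots are lowest and the LD-F1 dots highest, without overlap.

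Of the other ligands and receptors of the colony-stimulating factor kind, 8 of 11 listed genes matched an entry and 5 were tested. Csf3, the granulocyte factor G-CSF, was the 1 called, higher in both EV groups. It had 411 and 506 counts in LD-F1_b, 1718 and 1438 in LD-F1 and 14 and 1 in PBS, with log2 fold changes of 6.02 ± 0.40 (SE, adjusted p = 2.19e-05, edgeR) in LD-F1_b and 7.88 ± 0.37 (SE, adjusted p = 1.02e-06, edgeR) in LD-F1. The PBS pair differed 14 to 1, so the size of these fold changes is uncertain. Il34, the other ligand of Csf1r, had 47 and 45 counts in LD-F1_b, 49 and 65 in LD-F1 and 42 and 25 in PBS. The EV libraries lay above PBS, and its log2 fold change was 0.56 ± 0.34 in LD-F1_b (SE, adjusted p = 0.345, edgeR) and 0.94 ± 0.34 in LD-F1 (SE, adjusted p = 0.0663, edgeR). In LD-F1 it passed the threshold as higher in 2 of 15 settings, over log2 fold changes of 0.60 to 1.39. These were without the filter on low counts (0.95, adjusted p = 0.0474, edgeR) and without LD-F1 replicate 1 (1.10). Kitl, Csf2ra and Csf3r, with log2 fold changes of -0.07 to 0.25, were not called in either comparison. Csf2, the factor GM-CSF, had 0 counts in all 6 libraries, which allows up to 0.189 to 0.225 CPM in a library (3 counts), and Kit and Flt3 had at most 5 counts in any library. Flt3l, Csf2rb and Csf2rb2 were not analysed here. The list's median was 0.20 in LD-F1_b and 0.25 in LD-F1.

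Of 22 tested genes of Csf1r signalling, among them adaptors, kinases, phosphatases, targets and the membrane protease Adam17, 5 were called higher and 3 lower in LD-F1_b. In LD-F1, 5 were called higher, Adam17 among them, and 5 lower. Ets2, a transcription factor on the Ras and ERK arm, rose by a log2 fold change of 0.68 in LD-F1_b and 0.77 in LD-F1. Dok2, an adaptor that restrains Ras, rose by 0.50 and 0.48, in the same order of groups. Pik3cd and Pik3r1, the catalytic and regulatory subunits of a PI3 kinase, were lower by log2 fold changes of -0.54 and -0.45 in LD-F1_b and of -0.70 and -0.67 in LD-F1. Inpp5d, the phosphatase SHIP1 that removes the product of that kinase, was lower too, at -0.42 and -0.52. The median of the list was 0.07 in LD-F1_b and -0.03 in LD-F1, near the 0.01 of all genes, so that calls in both directions stood beside a centre near 0. Ets2 kept its call in all 15 settings in both groups, and Pik3cd, Pik3r1 and Inpp5d kept theirs in LD-F1. Dok2 lost its call in LD-F1 without PBS replicate 1 (log2 fold change 0.44). In LD-F1_b, Pik3r1 lost its call in 5 of 15 settings, Pik3cd and Inpp5d in 4 and Dok2 in 3. Pik3r1, Pik3cd and Inpp5d lost theirs with any LD-F1_b or PBS library left out, and Pik3r1 also with the length offset. Dok2 lost its call there without LD-F1_b replicate 2 or either PBS library. Over the 15 settings the number called higher ran from 1 to 7 in LD-F1_b and 2 to 7 in LD-F1, and the number lower from 0 to 4 and 3 to 7.

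Among the factors, Cebpb rose in both EV groups. Cebpb lies on chromosome 2 from 178519948 to 178521451 (plus strand). It had 355 and 461 CPM in LD-F1_b, 488.5 and 666 CPM in LD-F1 and 275 and 249.7 CPM in PBS. Replicates of the EV groups were spread, and all 4 EV libraries lay above both PBS libraries. Against PBS, the log2 fold change was 0.64 ± 0.16 in LD-F1_b (SE, adjusted p = 0.0265, edgeR), or 1.55-fold (95% interval 1.22 to 1.98). In LD-F1 against PBS it was 1.14 ± 0.16 (SE, adjusted p = 5.86e-04, edgeR), or 2.20-fold (95% interval 1.73 to 2.80), and this call held in all 15 settings, with log2 fold changes of 0.89 to 1.34. The call in LD-F1_b was lost in 5 of 15 settings, with adjusted p (edgeR) of 0.0678 without LD-F1 replicate 1, 0.0574 without LD-F1 replicate 2, 0.263 without LD-F1_b replicate 2, 0.102 without PBS replicate 1 and 0.193 without PBS replicate 2. Across genes, the log2 difference between the LD-F1 replicates (replicate 1 minus replicate 2) followed gene length with a Spearman's rho of 0.33, against 0.096 in LD-F1_b and 0.0092 in PBS. Cebpb, at 1504 bases, was lower in LD-F1 replicate 1 than in replicate 2. Cd68, shorter at 1257 bases, went the other way, with 664 and 533 CPM. The part of gene length in the spread of Cebpb was not tested. With an offset for gene length its log2 fold change was 0.57 in LD-F1_b (adjusted p = 0.0079, edgeR) and 1.05 in LD-F1 (adjusted p = 4.92e-05, edgeR), over a range of adjusted p in the 15 settings of 3.33e-09 to 0.263 and 2.21e-28 to 0.0386.

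Cebpa, the related factor, had 24.5 and 28.6 CPM in LD-F1_b, 23.6 and 28.5 CPM in LD-F1 and 34.7 and 32.8 CPM in PBS. Its 4 EV libraries lay below both PBS libraries, and the EV groups overlapped each other. It did not pass the threshold, with a log2 fold change of -0.35 in LD-F1_b (95% interval -0.64 to -0.05, adjusted p = 0.134, edgeR) and -0.37 in LD-F1 (95% interval -0.67 to -0.08, adjusted p = 0.0735, edgeR). In LD-F1_b it passed, as lower, when only LD-F1_b and PBS libraries were used or without either LD-F1 library (adjusted p 0.0265 to 0.0289, edgeR), out of a range over the 15 settings of 0.0265 to 0.534. In LD-F1 it passed with library totals alone, with the length offset and without LD-F1 replicate 2 (adjusted p 0.0112 to 0.0252, edgeR), out of a range of 0.0112 to 0.349. It lies on chromosome 7 from 36180150 to 36182785 (plus strand).

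Within a library the reads per kilobase of Cebpb over Cebpa came to 25.5 and 28.2 in LD-F1_b, 36.3 and 40.9 in LD-F1 and 13.9 and 13.4 in PBS. The means were 26.8 ± 1.97, 38.6 ± 3.30 and 13.6 ± 0.386 (SD, n = 2 each). As for the pair of ligand and receptor, the groups did not overlap, with LD-F1 highest and PBS lowest.

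Spi1, on chromosome 2 from 95635753 to 95674793 (plus strand), had 677 and 762 CPM in LD-F1_b, 712 and 774.5 CPM in LD-F1 and 633 and 657 CPM in PBS. Its EV libraries all lay above PBS, by little. The log2 fold change was 0.16 in LD-F1_b (95% interval -0.04 to 0.35, adjusted p = 0.314, edgeR) and 0.20 in LD-F1 (95% interval 0.01 to 0.40, adjusted p = 0.134, edgeR). In LD-F1 it passed the threshold in 1 of 15 settings, without LD-F1 replicate 1 (log2 fold change 0.26, adjusted p = 0.0070, edgeR, range over the 15 settings 0.0070 to 0.528). Its interval excludes a change of 1 log2 unit in either direction in both groups.

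Of the C/EBP family and its partners, 9 of 10 listed genes were tested, and 5 were called higher in LD-F1_b and 6 in LD-F1, with 0 called lower in each. Trib3, a pseudokinase that binds Atf4, rose by a log2 fold change of 2.90 ± 0.15 in LD-F1_b and 3.41 ± 0.15 in LD-F1 (SE). Ddit3, the C/EBP-related factor CHOP, had 40.1 and 36.8 CPM in LD-F1_b, 41.7 and 53.5 CPM in LD-F1 and 11.5 and 11.0 CPM in PBS, and rose by 1.78 ± 0.15 and 2.09 ± 0.15. Atf4, the factor that induces both in the stress response to misfolded proteins or lack of amino acids, rose by 1.58 ± 0.10 in LD-F1_b and 1.89 ± 0.10 in LD-F1. Trib1, a pseudokinase that brings Cebpa to the ubiquitin ligase Cop1, rose by 0.91 ± 0.12 and 0.95 ± 0.12, and Cebpg, a dimer partner of C/EBP factors and Atf4, by 0.72 ± 0.11 and 0.91 ± 0.11. Cop1 passed in LD-F1 alone (log2 fold change 0.34, adjusted p = 0.0162, edgeR), at 0.21 in LD-F1_b (adjusted p = 0.162, edgeR). Cebpe, Cebpz and Trib2 were not called, with log2 fold changes of 0.19, -0.03 and -0.57 in LD-F1_b and 0.17, -0.06 and -1.02 in LD-F1; Trib2 rested on 2 to 14 counts a library. Cebpd was not analysed here. Trib3, Ddit3, Atf4 and Trib1 kept their calls in all 15 settings in both groups, Cebpg lost its call in LD-F1_b without PBS replicate 1 (adjusted p = 0.0506, edgeR), and Cop1 lost its call in LD-F1 with library totals alone or without either PBS library (highest adjusted p 0.243, edgeR). The list's median was 0.72 in LD-F1_b and 0.91 in LD-F1, where all genes had 0.01.

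Of 20 tested myeloid transcription factors, 4 were called higher and 2 lower in each EV group. Tfec and Mitf, related factors of the MiT family, rose by log2 fold changes of 2.01 and 0.66 in LD-F1_b and 2.23 and 0.79 in LD-F1. Egr2, a zinc finger factor that acts below growth factor receptors, rose by 1.51 and 1.86, and Klf4, a zinc finger factor of monocytes, by 1.33 and 1.24, in the same order. Fli1, an Ets factor like PU.1, fell by 0.73 and 0.87 on the log2 scale in LD-F1_b and LD-F1. Tfec, Mitf, Egr2, Klf4 and Fli1 kept their calls in the 15 settings in LD-F1, and Egr2, Klf4 and Fli1 kept theirs in LD-F1_b. There Tfec and Mitf lost theirs without LD-F1_b replicate 1, and Tfec also without PBS replicate 1, the highest adjusted p over the 15 settings being 0.0885 (Tfec, edgeR). The list's median was 0.11 in each group.

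Cx3cr1 was the surface gene that rose. It lies on chromosome 9 from 126232232 to 126249320 (minus strand). It had 135 and 128 CPM in LD-F1_b, 124 and 109 CPM in LD-F1 and 79.4 and 89.5 CPM in PBS. All EV libraries lay above PBS, and the LD-F1_b pair lay above the LD-F1 pair. It rose by a log2 fold change of 0.64 ± 0.10 in LD-F1_b (SE, adjusted p = 1.58e-03, edgeR), or 1.56-fold (95% interval 1.34 to 1.81), and 0.47 ± 0.10 in LD-F1 (SE, adjusted p = 5.97e-03, edgeR), or 1.38-fold (95% interval 1.19 to 1.61). The call in LD-F1_b was lost without LD-F1_b replicate 1 (log2 fold change 0.60, adjusted p = 0.0511, edgeR) or PBS replicate 1 (0.55, adjusted p = 0.0579, edgeR), out of a range over the 15 settings of 6.10e-08 to 0.0579. The call in LD-F1 was lost without PBS replicate 1 (0.38, adjusted p = 0.133, edgeR), out of a range of 5.27e-05 to 0.133. Its ligand gene Cx3cl1 had 1 to 8 counts a library and was not tested.

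Among 9 tested genes of the fractalkine axis and of other chemoattractant receptors, 1 was called higher and 1 lower in LD-F1_b, and 2 higher and 3 lower in LD-F1, with medians of 0.10 and -0.22. Ccr1, a receptor of CC chemokines, rose by a log2 fold change of 0.47 in LD-F1_b and 0.52 in LD-F1. Cxcr4, the receptor of Cxcl12, fell by 1.60 and 2.00 on the log2 scale. In LD-F1 alone, C5ar1, a receptor of complement C5a, was lower at -0.47. The membrane proteases that cut fractalkine from the cell surface moved apart there, Adam17 at 0.32 and Adam10 at -0.38. In LD-F1_b against LD-F1 none of these 3 was called. Cxcr4 and C5ar1 kept their calls in all 15 settings in LD-F1. There Ccr1 lost its call in 2 of 15 settings, Adam10 in 3 and Adam17 in 6, in each case without either PBS library among them. Adam10 and Adam17 also lost theirs with only the groups compared, and Adam17 with library totals alone or without either LD-F1_b library. In LD-F1_b, Ccr1 lost its call with any LD-F1_b or PBS library left out, and Cxcr4 without LD-F1_b replicate 1 or PBS replicate 1.

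Adgre1 and Cd68, the usual identity markers, did not pass the threshold. Adgre1, on chromosome 17 from 61442445 to 61567913 (plus strand), had 449 and 425 CPM in LD-F1_b, 451 and 423 CPM in LD-F1 and 388 and 398 CPM in PBS. Its EV libraries lay above PBS and overlapped each other. The log2 fold change was 0.15 in LD-F1_b (95% interval -0.03 to 0.33, adjusted p = 0.279, edgeR) and 0.15 in LD-F1 (95% interval -0.03 to 0.33, adjusted p = 0.218, edgeR). It passed in LD-F1_b with only LD-F1_b and PBS libraries or without either LD-F1 library (adjusted p 0.0407 to 0.0466, edgeR, range over the 15 settings 0.0407 to 0.749), and in LD-F1 without LD-F1 replicate 2 (adjusted p = 0.0338, edgeR, range 0.0338 to 0.722).

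Cd68, on chromosome 11 from 72243978 to 72245918 (minus strand), had 655 and 673 CPM in LD-F1_b, 664 and 533 CPM in LD-F1 and 631 and 659 CPM in PBS. The groups overlapped, and LD-F1 replicate 2 stood lowest of the 6 libraries. The log2 fold change was 0.04 in LD-F1_b (95% interval -0.18 to 0.27, adjusted p = 0.850, edgeR), with -0.03 under scaling by library totals alone and under the length offset. It was -0.11 in LD-F1 (95% interval -0.33 to 0.12, adjusted p = 0.509, edgeR). In LD-F1 the direction rested on 1 library: it was -0.28 without LD-F1 replicate 1 (adjusted p = 0.0020, edgeR) and 0.04 without LD-F1 replicate 2 (adjusted p = 0.718, edgeR), over a range of adjusted p of 0.0020 to 0.821.

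Of the other surface and lysosomal markers, 16 were tested, and 1 was called higher in LD-F1_b, and 1 higher and 2 lower in LD-F1. These are 6.25% and 18.8% of the list, below the 11% and 21.2% of all genes called. Cd14, the co-receptor for lipopolysaccharide, rose by a log2 fold change of 0.88 ± 0.10 in LD-F1_b and 1.23 ± 0.10 in LD-F1 (SE). The 2 called lower in LD-F1 were Mrc1, the mannose receptor, at -0.55, and Lamp1, a lysosome membrane protein like Cd68, at -0.29. The medians were -0.01 and 0.03 in LD-F1_b and LD-F1. Of 23 tested core genes of tissue macrophages, 1 was called higher (Cd14) and 1 lower (Tlr7, a sensor of single-stranded RNA, -0.54) in LD-F1_b, and 3 higher and 5 lower in LD-F1. That is 8.70% of the list in LD-F1_b, below the 11% of all genes, and 34.8% in LD-F1, where 21.2% of all genes were called. The 3 higher in LD-F1 were Cd14, Abca1, a cholesterol exporter, at 0.51, and Slc48a1, a haem transporter, at 0.35; the 3 furthest below PBS were Mr1, which presents vitamin metabolites to T cells, at -1.37, Tlr7 at -0.73 and Myo7a, a myosin, at -0.65. The medians of that list were 0.04 in LD-F1_b and 0.06 in LD-F1. Cd14 kept its call in all 15 settings in both groups, and Tlr7 and Myo7a kept theirs in LD-F1. In LD-F1, Mr1 lost its call in 6 of 15 settings, Lamp1 and Abca1 in 5, and Mrc1 and Slc48a1 in 3. All 5 lost theirs without either PBS library. Mr1, Lamp1 and Abca1 also lost theirs with only the groups compared or without either LD-F1_b library. Slc48a1 also lost its call with library totals alone, Mrc1 without LD-F1 replicate 2 and Mr1 without LD-F1 replicate 1. Tlr7 lost its call in LD-F1_b without LD-F1_b replicate 1, LD-F1_b replicate 2 or PBS replicate 2.

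Mertk was close to undetected. It lies on chromosome 2 from 136171974 to 136284074 (plus strand). It had 2 and 5 counts in LD-F1_b, 3 and 1 in LD-F1 and 10 and 7 in PBS. All 4 EV libraries lay below PBS, and the EV groups overlapped. The summed counts gave a ratio, scaled by library size, of 0.423 in LD-F1_b against PBS (95% interval 0.148 to 1.07) and 0.249 in LD-F1 against PBS (95% interval 0.0610 to 0.764), where the intervals cover counting error only and the spread between replicates is not in them. Without the filter on low counts it was not called, with an adjusted p (edgeR) of 0.774 in LD-F1_b and 0.460 in LD-F1. The overlapping entries Gm14011 and Gm23172 had 0 counts. Its relatives and their ligands were as low: Axl had at most 3 counts in a library, Tyro3 at most 5, and the bridging ligands Gas6 at most 4 and Pros1 at most 14.

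Of the 13 tested genes of these receptors and of the uptake of dying cells, 1 was called higher and 3 lower in LD-F1_b, and 3 higher and 3 lower in LD-F1, with medians of -0.11 and -0.14. Cd36, a scavenger receptor, rose by a log2 fold change of 0.34 in LD-F1_b and 0.52 in LD-F1, and Abca1 rose in LD-F1. Itgb5, an integrin subunit that binds bridging proteins on dying cells, fell by 0.75 and 1.05 on the log2 scale in LD-F1_b and LD-F1, and Dock1, which activates Rac for engulfment, by 0.48 and 0.74. Itgav, the partner of Itgb5, fell by 0.35 in LD-F1_b. Cd36, Itgb5 and Dock1 kept their calls in all 15 settings in LD-F1. In LD-F1_b, Cd36 and Itgav lost theirs in 5 of 15 settings, Dock1 in 4 and Itgb5 in 1. Itgb5 lost its call without LD-F1_b replicate 1, and the others with any LD-F1_b or PBS library left out. Cd36 also lost its call with library totals alone, and Itgav with the length offset.

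The shares called in either direction in LD-F1_b and LD-F1, where 11% and 21.2% of all genes were called, came to 20% and 20% of the colony-stimulating factor list, 36.4% and 45.5% of the genes of Csf1r signalling, and 30% and 30% of the myeloid factors. They came to 55.6% and 66.7% of the C/EBP family and partners, 30.8% and 46.2% of the genes of the uptake of dying cells, and 22.2% and 55.6% of the fractalkine and chemoattractant list. With 5 to 23 tested genes a list and lists chosen with earlier results known, these shares are a description.

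**Figure D4:**
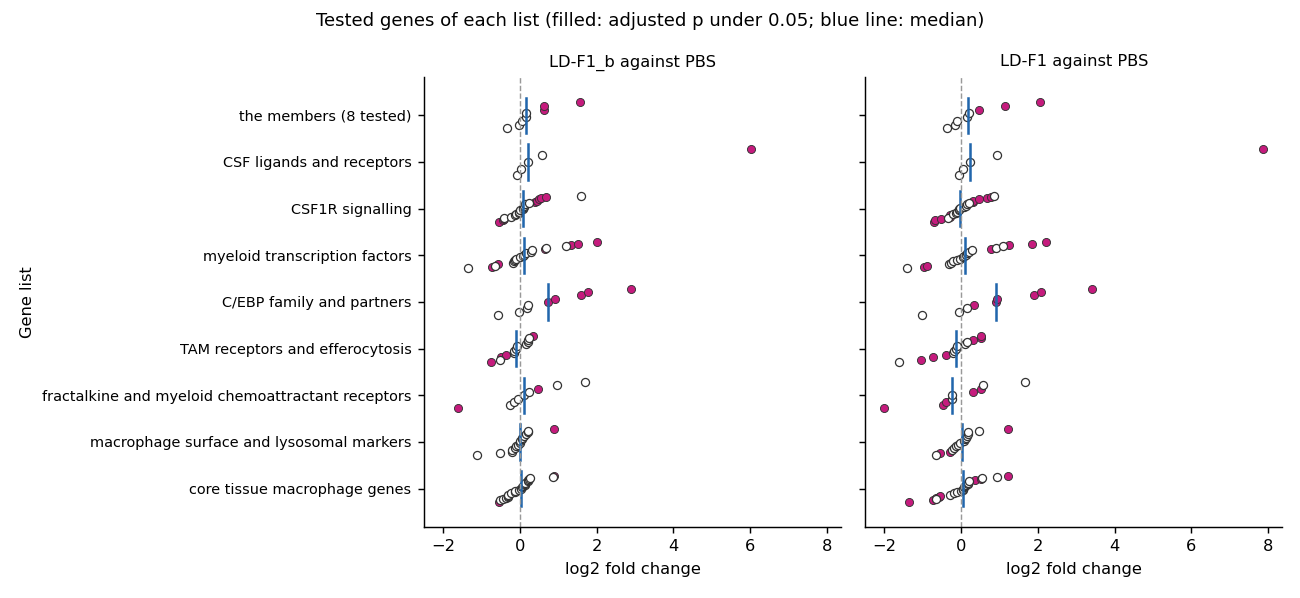
Log2 fold change of every tested gene of the 9 described genes and of 8 gene lists, in LD-F1_b against PBS and LD-F1 against PBS; filled points passed an adjusted p of 0.05 and the blue line is the median. The C/EBP family and partners stand right of 0 with medians of 0.72 and 0.91, the point furthest right is Csf3, and most other medians lie near 0.

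The genes most like each member over the 6 libraries were sought among 9660 genes of at least 5 CPM on average, by the root-mean-square difference of centred log2 CPM. Nearest to Csf1 were Il1rn, the interleukin-1 receptor antagonist, at 0.0755, Ier3, an early response gene, at 0.0817 and Zc3h12a, an RNase that cuts inflammatory messages, at 0.0829 log2 units, each over a range of about the 2.06 log2 units of Csf1. Nearest to Cebpb were Serpinb1b at 0.0876, Gch1, the first enzyme of tetrahydrobiopterin synthesis, at 0.110 and Siah2, a ubiquitin ligase, at 0.115. Nearest to Cx3cr1 were Myo1e at 0.0687, Slc16a10 at 0.0710 and Cry2 at 0.0738. Nearest to Cebpa were Adi1, Wash1 and Cdt1, at 0.0334 to 0.0363. For Csf1r, Spi1, Adgre1 and Cd68 the range over libraries was 0.216 to 0.336 log2 units, and the nearest genes were 2410002F23Rik, Aph1a, Cdyl2 and Crot, at 0.0110 to 0.0252. The likeness is a description of 6 libraries that share their culture and 3 treatments.

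None of the 8 tested genes was called between the EV groups in LD-F1_b against LD-F1, a comparison in which 0.424% of all genes were called, 0.0157% higher and 0.408% lower, by edgeR. The unadjusted p was under 0.05 for 2 of the 8, Csf1 (0.0013) and Cebpb (0.0090), and by DESeq2 0 of the 8 were called. Csf1 had a log2 fold change of -0.49 (95% interval -0.74 to -0.23, adjusted p = 0.138, edgeR), with both LD-F1_b libraries below both LD-F1 libraries. It passed without LD-F1 replicate 1 (-0.48, adjusted p = 0.0279, edgeR), out of a range over the 15 settings of 0.0279 to 0.815. Cebpb had a log2 fold change of -0.50 (95% interval -0.84 to -0.16, adjusted p = 0.336, edgeR), also without overlap of the groups, and passed in 1 of 15 settings, without the filter on low counts (adjusted p = 6.41e-05, edgeR, range 6.41e-05 to 0.974). Cx3cr1, at 0.17 (95% interval -0.05 to 0.39), and Csf1r, at 0.13 (95% interval -0.04 to 0.31), did not overlap between the groups either and were not called. With no share over all genes beside it, the lack of overlap of these genes is a description only. Cd68 was at 0.15 (95% interval -0.07 to 0.37) and passed without LD-F1 replicate 1 (0.31, adjusted p = 0.0044, edgeR, range 0.0044 to 0.9999). Spi1, Cebpa and Adgre1 had 95% intervals of -0.24 to 0.15, -0.28 to 0.33 and -0.18 to 0.18. The summed Mertk counts gave a ratio of 1.70 (95% interval 0.432 to 7.92, counting error only). Of the genes in the 8 lists, Csf3 was the 1 called in this comparison, lower in LD-F1_b.

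**Figure D5:**
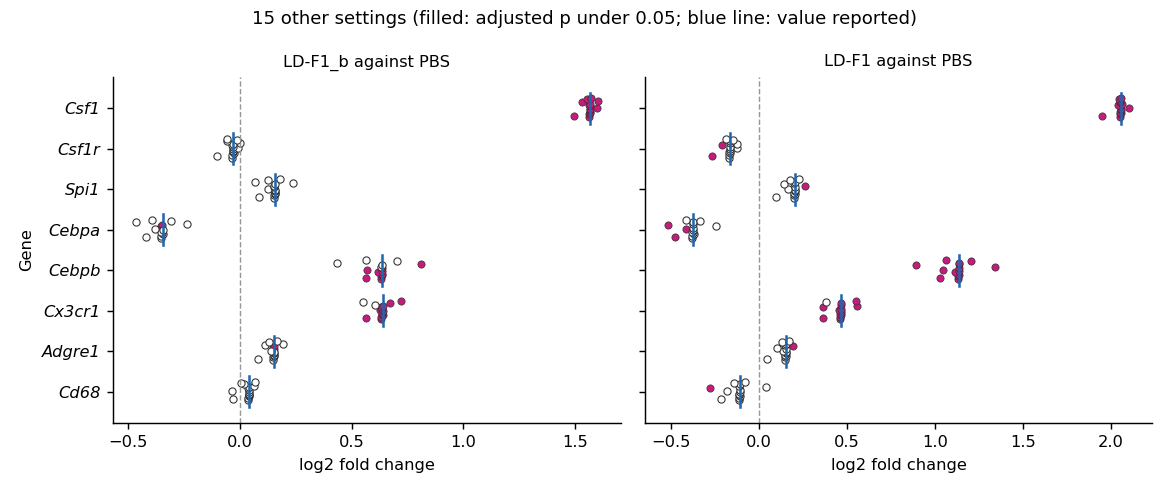
Log2 fold change of the 8 tested genes under 15 other settings, in LD-F1_b against PBS and LD-F1 against PBS; filled points passed an adjusted p of 0.05 and the blue line is the value reported. All Csf1 points are filled in both panels and all Cebpb points in LD-F1, while 5 Cebpb points in LD-F1_b are open.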

How the data were processed

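Poly(A) RNA libraries of 6 macrophage samples, 3 groups of 2, were sequenced. The authors deposited whole-number counts of reads per gene, not normalised, made on GRCm39 with featureCounts 1.5.0-p3, HISAT2 2.0.5, fastp and StringTie 1.3.3b, per the submitters' processing notes. The gene identifiers and positions in the table are those of the strain annotation C57BL/6NJ, and all gene positions above are printed as deposited. Promoter positions are of GRCm38.p6, so gene and promoter positions cannot be set against each other. Strand setting and treatment of multi-mapped reads: not given in the sources used here. It has 0 entries without an identifier and 0 unmatched per-sample columns.

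The test was edgeR's quasi-likelihood F test on the counts (version 4.0.16, R 4.3.3, robust), after filterByExpr (minimum count 10) and TMM, on all 6 libraries (3 residual degrees of freedom), with Benjamini-Hochberg adjustment over all 12740 genes tested. The SE is the log2 fold change over the square root of F, and 95% intervals use the t distribution on the total degrees of freedom. RPKM used the table's gene lengths. Replicate log2 CPM (prior count 2) correlated at 0.984 (LD-F1), 0.989 (LD-F1_b) and 0.991 (PBS), and their counts differed by more than counting error (chi-square per degree of freedom 17.8, 5.56 and 3.18), so no library was a copy of another. Intervals of count ratios and the floor of 3 counts cover counting error only.

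The genes and the lists were chosen with earlier results of these data known. Of a list, the 3 highest and 3 lowest log2 fold changes among called genes were named per comparison, and any gene of a list of at most 12; some list genes are counted but not reported by name here. The 15 other settings were RLE factors, library totals alone, DESeq2 1.42.0, no filter, at least 10 counts in every library, a replicate block, a spread estimate that is not robust, a lowess offset for gene length (span 0.5), only the groups compared, and each of the 6 libraries left out.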

Additional observations from a re-analysis of the deposited data

Results flagged for a closer look

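Csf3, the granulocyte colony-stimulating factor gene, differed between the EV groups in a direct test: its log2 fold change in LD-F1_b against LD-F1 was -1.86 ± 0.22 (SE, adjusted p = 0.0067, edgeR), from 411 and 506 counts in LD-F1_b and 1718 and 1438 counts in LD-F1, with no overlap. Both EV groups were higher than PBS, as given above. The call was lost in 3 of the 14 settings in which it could be tested: with DESeq2 (adjusted p = 0.795), without LD-F1_b replicate 1 (adjusted p = 0.1645, edgeR) and without LD-F1_b replicate 2 (adjusted p = 0.116, edgeR), over log2 fold changes of -2.02 to -1.69. A minimum of 10 counts in every library leaves Csf3 out.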

How the results depend on the processing

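Over 15 settings, the direction and call of Csf1 in both EV groups and of Cebpb in LD-F1 held; calls lost by Cebpb in LD-F1_b and by Cx3cr1 are given above, and the cause was not tested. Of 360 values of the 8 tested genes in all comparisons, 11 reversed, all of uncalled genes. These were Cd68 in LD-F1_b against PBS (-0.031 with library totals alone and -0.034 with the length offset) and, with 1 library left out, Cd68 in LD-F1 against PBS (range -0.28 to 0.040) and, in LD-F1_b against LD-F1, Spi1 (-0.14 to 0.037), Cebpa (-0.11 to 0.17) and Adgre1 (-0.042 to 0.043). The number of the 9 genes called lower in LD-F1 was 0, against 2 with library totals alone, 1 with the length offset and 0 to 2 with a library left out; in LD-F1_b it was 0, against 1 with only the groups compared and 0 to 1 with a library left out. The number called higher in LD-F1_b was 3. With only the groups compared, Adgre1 was called higher as well (log2 fold change 0.15, adjusted p = 0.0445, edgeR), where 1578 of 12514 genes were called higher. With a library left out the set called changed, as Cebpb or Cx3cr1 lost calls and Adgre1 gained one in settings given above. In LD-F1_b against LD-F1, 1 of the 9 was called lower without the filter, and with a library left out 0 to 1 were called lower and 0 to 1 higher. Raw counts in place of reads per kilobase gave Csf1 to Csf1r ratios of 2.27% in LD-F1_b, 3.48% in LD-F1 and 0.748% in PBS, and Cebpb to Cebpa ratios of 15.3, 22.02 and 7.78.

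Of the list genes called, 10 of 28 in LD-F1_b against PBS and 26 of 40 in LD-F1 against PBS kept their calls in every setting tried, and none reversed. Over all genes, LD-F1_b against PBS had 1398 calls, 3098 with only the groups compared and 401 to 3142 with a library left out. LD-F1 against PBS had 2707 calls, and 1213 to 4497 with a library left out. LD-F1_b against LD-F1 had 54 calls, 105 with DESeq2, 185 without the filter, 112 with the length offset, 33 with only the groups compared and 0 to 1152 with a library left out, the 1152 being without LD-F1 replicate 1; a lone library is there assumed to vary like the other groups. Library totals alone moved the median log2 fold change of all genes by -0.07 in LD-F1_b and -0.10 in LD-F1, and the share of calls that were higher to 41.7%, against 58.7%, in LD-F1_b and to 33.6%, against 53.5%, in LD-F1. Replicate numbers did not pair the libraries (correlation of deviations -0.023 to 0.084); the replicate block gave 1357, 2706 and 52 calls in LD-F1_b against PBS, LD-F1 against PBS and LD-F1_b against LD-F1 and changed no call of the 9 genes. Mertk, with 1 to 10 counts a library, did not pass the filter on low counts and was not tested.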
